A study of Mus musculus with 6 samples.

Results

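Argonaute (Ago) footprints on 10 genes of the cell cycle engine were examined in bone-marrow-derived macrophages of APOBEC1-deficient mice (KO) and of wild-type littermates (WT). The genes were the cyclins Ccnd1 and Ccnd2, the kinases Cdk4, Cdk6, Cdk2, Cdk18 and Wee1, the inhibitor Cdkn1b, the pocket protein gene Rbl1 and the transcription factor E2f1. A footprint was taken when it overlapped a listed gene on its own strand in GENCODE vM1, and 1 footprint lying past the end of Wee1 was added by its position. This gave 23 of the 6270 footprints deposited, on 9 of the 10 genes, and Ccnd2 had none. Ccnd1 held 10 of them, Cdk18 and Cdkn1b 3 each, Cdk6 2, and Cdk4, Cdk2, Wee1, Rbl1 and E2f1 1 each.

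The assay was HITS-CLIP: RNA cross-linked to Ago is pulled down with the antibody 2A8 and read by sequencing. Both groups were C57BL/6 mice aged 6 to 12 weeks, 3 littermate pairs, giving 3 KO and 3 WT libraries. The KO mice were Apobec1-/-, an allele whose deleted stretch the labels do not describe. Apobec1 itself still had 3 footprints, with a summed occupancy of 0.312 in KO and 0.372 in WT, so its footprints do not check the genotype. Marrow cells of both genotypes were matured with M-CSF for 7 days, and no other agent is named.

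Each footprint has 1 occupancy value per genotype, the authors' ratio of footprint signal to transcript expression by RNA-Seq. Beside it stands a count of the KO and of the WT libraries in which it was found. Read counts are not part of the table, and library depth is therefore unknown. No difference between KO and WT below has a replicate check, an SD or a p-value. A ratio is called 2-fold when its log2, computed after adding a pseudocount of 0.00161 to both values, reaches 1 in either direction. For the number of libraries, 3 against 3 could not go below an exact 2-sided p of 0.1, and no test was made. Ago footprints were present on the macrophage marker genes Csf1r, Emr1, Itgam, Cd14, Fcgr1, Lyz2 and Cx3cr1 and not on Cd68 and Mertk, and on 0 of 7 T and B cell, 0 of 6 neutrophil and 0 of 4 fibroblast markers. Of 8 proliferation markers, Pcna alone had a footprint. A footprint records Ago binding and not the level of the mRNA, so these counts describe the cell type loosely.

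D-type cyclins bind and activate CDK4 and CDK6, which phosphorylate the retinoblastoma family of pocket proteins and so release E2F transcription factors at the end of G1. CDK2 carries the process into S phase, p27 (the product of Cdkn1b) inhibits cyclin-CDK complexes, and WEE1 holds CDK1 inactive by phosphorylating it. In macrophages cyclin D1 is known as a gene induced by M-CSF. Ago proteins carry miRNAs, whose seed (bases 2 to 8) pairs with sites that lie mostly in 3′ UTRs. Several of these genes are well-known miRNA targets in human cells, among them CCND1 for miR-15 and miR-16, E2F1 for miR-17, CDKN1B for miR-221 and miR-222, and CDK6 for miR-34a.

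A perfect 7-nt match to the seed of a listed miRNA was found in 6 of the 23 footprints (26.1%), against 21.5% of all 6270 footprints. The list had 40 miRNAs common in blood cells or known for cell cycle targets, of which 39 were found in RefSeq (build GRCm38.p6), with 29 different seeds. Matches were sought on the strand of the transcript. The 6 sites are given as 30-nt windows of the transcript strand in mm9, with the match in capitals, because they are the pairings that the footprints of this group offered.
Ccnd1 footprint 7, miR-23a-3p, chr7:152116536-152116565, minus strand: tAATGTGAttaccgctgtattccaaaaaaa
Cdk6 footprint 1, miR-103-3p, chr5:3521089-3521118, plus strand: tctaaccttgaATGCTGCcagtgtagggtg
Cdk2 footprint 1, miR-29a-3p, chr10:128135466-128135495, minus strand: ttactgttttcTGGTGCTgactgctacacc
Cdk18 footprint 1, miR-103-3p, chr1:134010896-134010925, minus strand: gcaccagcATGCTGCccatgtccagctgca
Cdk18 footprint 3, miR-27a-3p and miR-181a-5p, chr1:134010273-134010302, minus strand: tttcccactgACTGTGAATGTcgtgactca
Cdkn1b footprint 3, miR-24-3p, chr6:134875432-134875461, plus strand: aaggttgcataCTGAGCCaagtataatttt

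The miRNAs that these sites match are given from RefSeq with the seed in capitals, and no pair among them shares a seed.
miR-23a-3p: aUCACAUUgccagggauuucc
miR-27a-3p: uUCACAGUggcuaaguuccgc
miR-24-3p: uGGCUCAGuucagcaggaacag
miR-103-3p: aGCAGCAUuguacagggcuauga
miR-29a-3p: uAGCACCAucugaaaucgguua
miR-181a-5p: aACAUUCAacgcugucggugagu

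The miR-103 match (ATGCTGC) was the one found more than once, on Cdk6 and Cdk18, and 0.973% of all footprints held it. In Cdk18 footprint 3 the miR-27 match (ACTGTGA) and the miR-181 match (TGAATGT) overlapped, so their letters run together. All footprints held the miR-27 match in 1.59%, the miR-23 match (AATGTGA) in 1.52%, the miR-181 match in 1.18%, the miR-29 match (TGGTGCT) in 0.893% and the miR-24 match (CTGAGCC) in 0.813%. Counted from the footprint centre, with negative values toward the stop codon, the miR-103 matches lay at 27 nt (Cdk6) and -21 nt (Cdk18). The other matches lay at -28.5 nt (Ccnd1), 12.5 nt (Cdk2), 15 and 19 nt (Cdk18 footprint 3) and -15 nt (Cdkn1b). A match is a run of letters in the sequence and does not show that the miRNA was bound there. Whether these miRNAs were present in the libraries was not analysed here.

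Over the 23 footprints, 22 of which lay in an annotated 3′ UTR (96.7% of all footprints), occupancy had a median of 0.792 in KO and 1.18 in WT, against 0.377 in KO and 0.406 in WT over all footprints. In such bulk cultures fewer cells with a bound transcript and less binding per cell cannot be told apart. Occupancy was higher in KO for 12 and lower for 11 (52.2% higher, against 48.7% of all footprints), with a median log2 ratio of 0.02 (all footprints -0.04). Ratios of at least 2-fold were reached by 7 footprints higher in KO (30.4%; 18.9% of all footprints) and by 4 lower (17.4%; 24.2% of all). The 7 were Ccnd1 footprints 4, 6, 8 and 10 and the footprints on Cdk2, E2f1 and Cdk6 (footprint 1). The 4 were Ccnd1 footprint 1, Cdkn1b footprint 2, the Cdk4 footprint and the Rbl1 footprint, the last of these listed at 0 in KO. Cyclin D1 thus supplied 4 of the 7, and its footprints share a transcript and are not replicates. Among the 13 footprints on other genes, 3 were at least 2-fold higher and 3 at least 2-fold lower, with a median log2 ratio of -0.01.

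**Figure D1:**
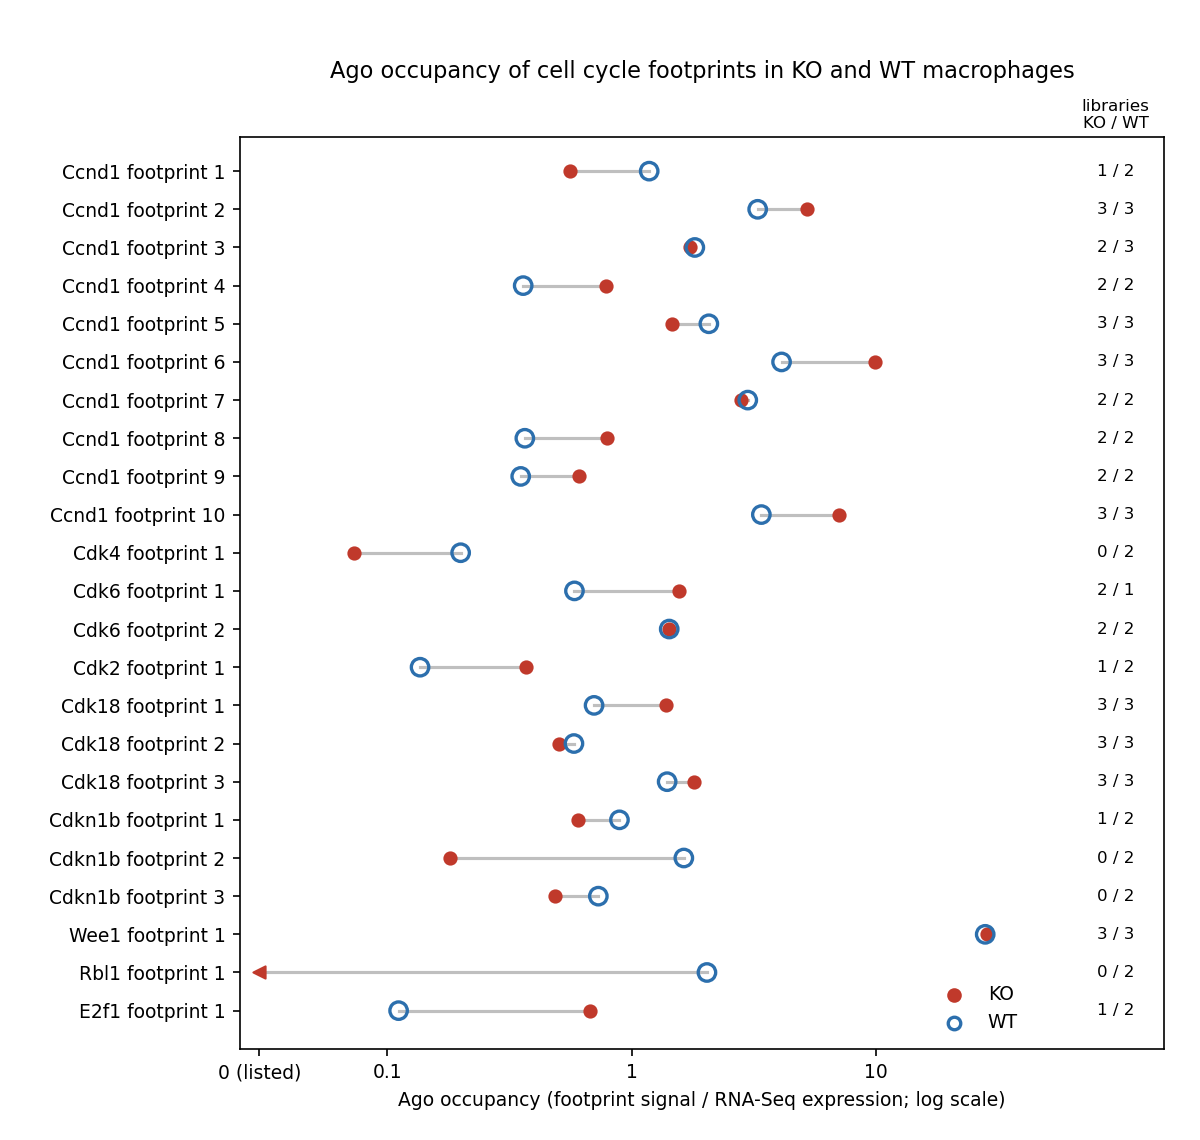
Ago occupancy (log axis) of the 23 footprints in KO (filled) and WT (open), numbered within each gene from the stop codon onward, with the number of libraries out of 3 that held each. The arrowhead marks the Rbl1 footprint, listed at 0 in KO. The Wee1 footprint stands far to the right in both genotypes, at 28.2 in KO and 27.9 in WT.

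Of the 23 footprints, 13 were held by equally many KO and WT libraries, 9 by fewer KO than WT libraries and 1 by more. At least 2 KO libraries held 15 of the 23 (65.2%; 40.1% of all footprints) and at least 2 WT libraries held 22 (95.7%; 94.9% of all). By the authors' rule a footprint enters the table through at least 2 libraries of 1 genotype, and 22 of the 23 met it in WT. All 6 libraries held 8 of them (34.8%; 5.89% of all), namely 4 on Ccnd1, 3 on Cdk18 and the one past Wee1. Of these 8, 6 were higher in KO (56.9% of all footprints in 6 libraries), 2 of them by at least 2-fold (6.78%), and 0 were at least 2-fold lower (4.34%). At least 1 library of each genotype held 19 footprints, with 7 at least 2-fold higher (24.9% of all such footprints) and 1 lower (10.3%). At least 2 of each held 14, with 4 higher (26.2%) and 0 lower (5.01%). No KO library held the Cdk4 and Rbl1 footprints or Cdkn1b footprints 2 and 3 (17.4%; 27.9% of all).

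Cyclin D1, the regulatory partner of CDK4 and CDK6, carried the most footprints and had the highest summed occupancy of the 10 genes in KO, while in WT only Wee1 was higher. Its 10 footprints lay in the 3′ UTR, between 387 and 2622 nt after the stop codon, and covered 25.1% of its 2676 nt. Together they summed to 30.8 in KO and 19.9 in WT (log2 ratio 0.63), which placed Ccnd1 at rank 7 of 2223 genes by the mean of both. The 2223 are the genes that a footprint overlapped, so Wee1 is not in this ranking. In all, 97 genes held 10 or more footprints, and 11.7% of the 2223 gene sums were at least 2-fold higher and 17.9% at least 2-fold lower in KO. The sum of Ccnd1 was higher in KO, as were 47.8% of gene sums, and reached neither limit. The gene Oraov1 on the opposite strand overlaps footprints 7 to 10, and the strand is that in the authors' footprint identifiers.

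The 3 strongest Ccnd1 footprints were numbers 6, 10 and 2, and each was held by all 6 libraries. Footprint 6 (chr7:152117021-152117084, minus strand, 1428 to 1491 nt after the stop codon) had 9.83 in KO and 4.10 in WT (log2 ratio 1.26). Footprint 10 (chr7:152115890-152115954, near the 3′ end) had 7.06 in KO and 3.39 in WT (1.06). Footprint 2 (chr7:152117763-152117826) had 5.21 in KO and 3.27 in WT (0.67). None of the 3 held a 7-nt match to a listed seed. Ranked by mean occupancy among all 6270 footprints they stood at 34, 56 and 79.

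Among the 7 weaker Ccnd1 footprints the genotypes differed in both directions. Footprint 7, the one with the miR-23 site printed above, had 2.80 in KO and 2.98 in WT, and footprint 3 had 1.73 in KO and 1.81 in WT. Footprint 5, held by all 6 libraries, had 1.47 in KO and 2.07 in WT (-0.50). Footprints 4, 8 and 9 were weak and alike, at 0.609 to 0.792 in KO and 0.351 to 0.365 in WT, with log2 ratios of 0.79 to 1.12. Each was held by 2 KO and 2 WT libraries, a pattern in which 32.8% of all footprints were at least 2-fold higher and 2.84% at least 2-fold lower in KO. Footprint 1, the nearest to the stop codon, had 0.561 in KO and 1.18 in WT (-1.07), and was the one Ccnd1 footprint held by fewer than 2 KO libraries. The rank order of the 10 was close to the same in both genotypes, with a Spearman correlation of 0.915 across footprints, which share the transcript and the libraries.

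Shares of a gene's summed occupancy do not depend on an expression value that its footprints have in common. Footprints 6, 10 and 2 together gave 71.7% of the Ccnd1 sum in KO and 54.1% in WT. Footprint 6 alone gave 31.9% in KO and 20.6% in WT. The other 7 summed to 8.74 in KO and 9.11 in WT (-0.06), so the difference in the Ccnd1 sum lay in the 3 strongest, which summed to 22.1 in KO and 10.8 in WT (1.04). These 3 were picked by their values, and the split is a description. The sources used here do not say whether all 10 were divided by the same expression value.

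**Figure D2:**
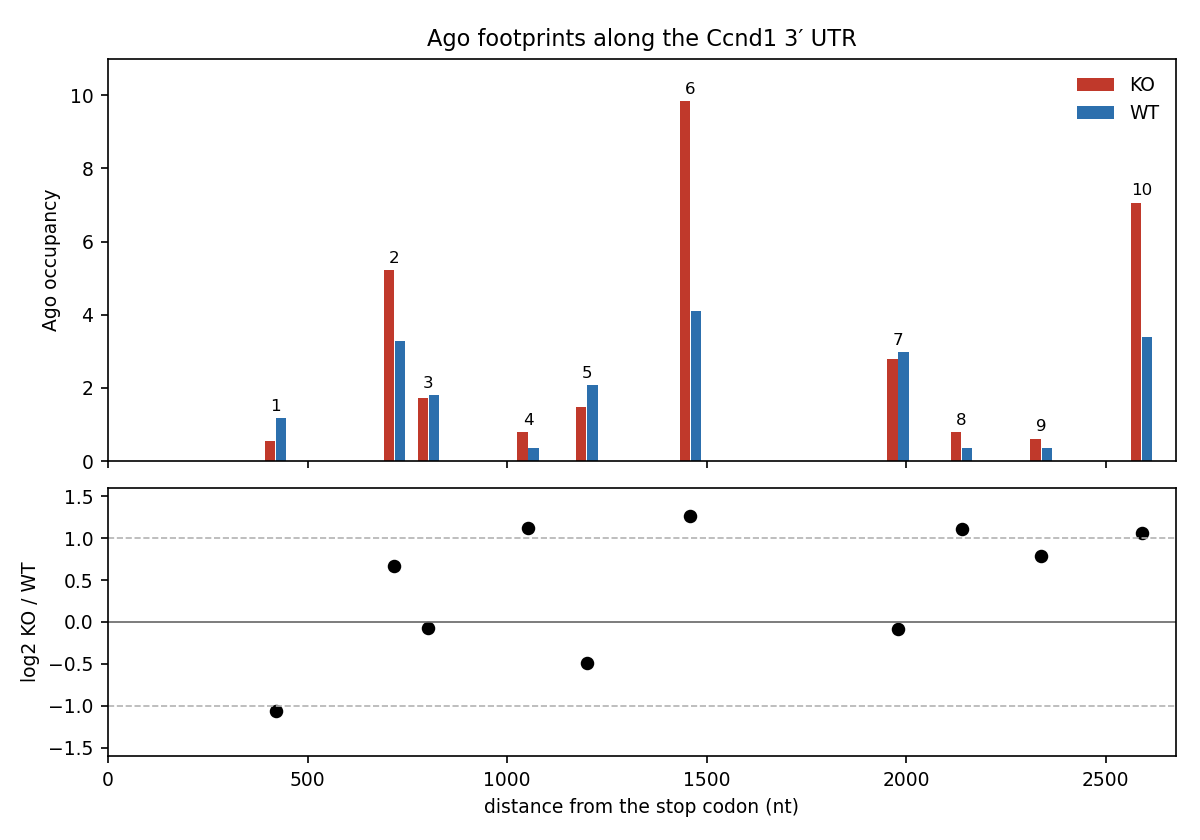
Occupancy of the 10 Ccnd1 footprints (upper panel, KO left of WT in each pair) and their log2 KO over WT ratio (lower panel) against the distance from the stop codon in nt. Dashed lines mark 2-fold. Footprints 6, 10 and 2 are the tallest in both genotypes and are higher in KO, whereas footprints 1 and 5 are lower in KO and footprints 3 and 7 nearly level.

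Ccnd2, which encodes the related cyclin D2, had no footprint in the table, although its annotated 3′ UTR is the longest of the group at 4556 nt. It held 10 seed matches, among them 1 for miR-15 and miR-16, 1 for the miR-17 family and 2 for miR-29. Absence from the table means that no site reached the authors' definition and does not show that Ago was absent.

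The kinase partners of the D cyclins, Cdk6 and Cdk4, had fewer footprints and a lower summed occupancy than Ccnd1. Cdk6 had 2 long ones, of 121 and 190 nt against a median of 72 nt over all footprints. Footprint 1 (chr5:3521016-3521136, 225 to 345 nt after the stop codon), which holds the miR-103 site, had 1.57 in KO and 0.583 in WT (1.42) and was held by 2 KO and 1 WT libraries. It was the one footprint of the group that met the authors' rule in KO and not in WT. Of the 258 footprints in the table held by 2 KO and 1 WT libraries, 70.5% were at least 2-fold higher in KO. Footprint 2 (chr5:3521359-3521548) had 1.42 in both KO and WT. The Cdk6 sum was 2.98 in KO and 2.00 in WT (0.57), and the whole of this difference lay in footprint 1.

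Cdk4 had 1 weak footprint (chr10:126504261-126504329, 184 to 252 nt after the stop codon), with 0.0730 in KO and 0.200 in WT (-1.43). It was held by 0 KO and 2 WT libraries. Its KO value was shared exactly with 1 other footprint and its WT value with 2. In all, 33.3% of KO values and 18.6% of WT values above 0 were shared in this way. Of the 1640 footprints held by 0 KO and 2 WT libraries, 57.6% were at least 2-fold lower and 2.62% at least 2-fold higher in KO.

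Cdk2, the kinase of S phase entry, also had 1 weak footprint (chr10:128135462-128135525), with 0.368 in KO and 0.136 in WT (1.42). It holds the miR-29 site, 12.5 nt past its centre, and was held by 1 KO and 2 WT libraries. Of the 1819 footprints with that library pattern, 18.3% were at least 2-fold higher and 13.4% at least 2-fold lower in KO.

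Cdk18, a member of the PCTAIRE kinases related to the CDKs, had 3 footprints that were each found in all 6 libraries. From the stop codon onward they had 1.38, 0.505 and 1.79 in KO and 0.701, 0.580 and 1.39 in WT, with log2 ratios of 0.98, -0.20 and 0.36. The first (chr1:134010861-134010925) holds a miR-103 site and came closest to 2-fold, just short of it. Its log2 ratio reached 1.01 with the median of all footprints subtracted. With the median of footprints of like G+C content subtracted it was 0.58. With a pseudocount of 0.1 it was 0.885, and with 1 it was 0.48. The third (chr1:134010273-134010335), with the overlapping miR-27 and miR-181 sites, was the strongest in both genotypes. The sum was 3.67 in KO and 2.68 in WT (0.46). Of the 6 seed matches in its 3′ UTR, 3 lay under a footprint.

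Wee1, the kinase that restrains CDK1, stood apart by the occupancy value of its footprint. The footprint (chr7:117286008-117286072, plus strand, 65 nt) began 382 nt past the annotated gene, whose model ends at the stop codon and so has no 3′ UTR beyond it. It had 28.2 in KO and 27.9 in WT (log2 ratio 0.02) and was held by all 6 libraries. By mean occupancy it ranked 3 among the 6270 footprints, and the next footprint of the group, Ccnd1 footprint 6, averaged 6.96. It held no 7-nt match to a listed seed. The annotation places no gene there, so its assignment to Wee1 rests on its position and strand. The sources used here do not say which expression value its signal was divided by. Its high occupancy is therefore not a measure of footprint signal alone. By distance on the log2 scale over the 2 genotype values, the footprints most alike were those of H6pd (17.4 in KO and 29.2 in WT), Cyth1 (45.8 in KO and 24.1 in WT) and C3ar1 (46.3 in KO and 35.5 in WT).

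Cdkn1b was lower in KO at each of its 3 footprints, which lay from 2225 nt after the stop codon onward in a 3′ UTR of 3439 nt. A higher KO value was found for 48.7% of all footprints. The 3 had a G+C content of 31.8%, 33.3% and 36.7%, below the table median of 42.9%. Of all footprints below that median 63.8% were lower in KO. The first Cdkn1b footprint (chr6:134874317-134874382) had 0.605 in KO and 0.890 in WT (-0.56), with 1 KO and 2 WT libraries. The second (chr6:134875225-134875287) had 0.180 in KO and 1.63 in WT (-3.17). The third (chr6:134875388-134875534), which holds the miR-24 site and reaches the end of the gene, had 0.486 in KO and 0.730 in WT (-0.59). No KO library held the second or the third, whereas 2 WT libraries held each, the pattern of the Cdk4 footprint, in which 57.6% of footprints were at least 2-fold lower in KO. The KO values of these 2 were shared exactly with 1 and 7 other footprints. The 3 summed to 1.27 in KO and 3.25 in WT (-1.35), and the second footprint gave 14.2% of it in KO and 50.2% in WT.

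Values above 0 in a genotype in which no library held the footprint occurred for 3 footprints of the group, those of Cdk4 and Cdkn1b just given. In the table as a whole 23.3% of footprints were of this kind in KO. An exact double elsewhere in the table was found for 66.2% of such KO values, against 22.6% of those held by at least 1 KO library. The sources used here do not say how such values were made, so the size of the Cdk4 and Cdkn1b ratios rests on values of unknown origin.

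The pocket protein gene Rbl1, which encodes the E2F repressor p107, had 1 footprint (chr2:156971701-156971778, minus strand). It was listed at 0 in KO and at 2.03 in WT, with 0 KO and 2 WT libraries, and no fold is given. In KO 4.63% of all footprints were listed at 0, and 16.5% of those with this library pattern. E2f1, the activating transcription factor of the pathway, had 1 footprint near the stop codon (chr2:154386266-154386328, 96 to 158 nt after it). It had 0.672 in KO and 0.111 in WT, 6.04 times as high (log2 ratio 2.58), the highest ratio of the group. It was held by 1 KO and 2 WT libraries, so the higher value came with fewer libraries.

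**Figure D3:**
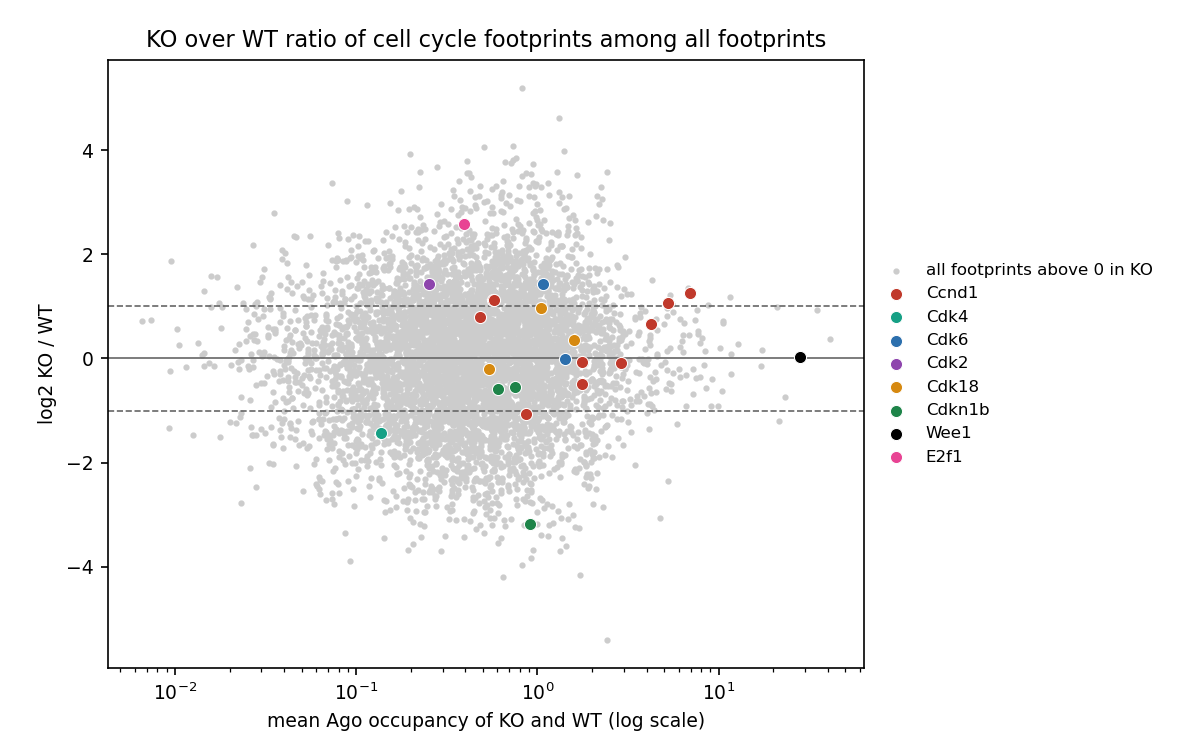
Log2 KO over WT ratio against the mean occupancy of both genotypes (log axis), with all footprints above 0 in KO in grey and those of the group coloured by gene. Rbl1, listed at 0 in KO, is not drawn. Wee1 lies near 0 at high occupancy, the strongest Ccnd1 footprints lie above 0, and the E2f1, Cdk2 and Cdk4 footprints with ratios past the dashed 2-fold lines are weak.

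Ordered by summed occupancy, the KO values ran from Ccnd1 (30.8) through Wee1 (28.2), Cdk18 (3.67), Cdk6 (2.98), Cdkn1b (1.27), E2f1 (0.672), Cdk2 (0.368) and Cdk4 (0.0730) to Rbl1 (0). In WT the order was Wee1 (27.9), Ccnd1 (19.9), Cdkn1b (3.25), Cdk18 (2.68), Rbl1 (2.03), Cdk6 (2.00), Cdk4 (0.200), Cdk2 (0.136) and E2f1 (0.111). With 1 value per genotype the spread is unknown, so neighbours in these orders cannot be told apart. Sums also grow with the number of footprints on a gene.

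The 3′ UTRs of the group were searched for the same seeds to see where matches lay relative to the footprints. They held 44 matches in 19444 nt, of which 7 (15.9%) lay within a footprint, while footprints covered 8.89% of the length. The matches for the miRNA and target pairs named above from human cells all lay outside the footprints. On Ccnd1 the match for miR-15 and miR-16 lay 34 nt from the nearest footprint and that for the miR-17 family 87 nt away. The 2 matches for the miR-17 family on E2f1 lay 312 and 827 nt from its footprint. The match for miR-221 and miR-222 on Cdkn1b lay 67 nt from footprint 1, and the 2 matches for miR-34a on Cdk6 were 328 and 1445 nt from footprint 2. None of the 23 footprints held a match for any of these 4 seeds, which 1.99% (miR-15 and miR-16), 0.957% (miR-17), 0.59% (miR-221 and miR-222) and 0.941% (miR-34a) of all footprints held.

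**Figure D4:**
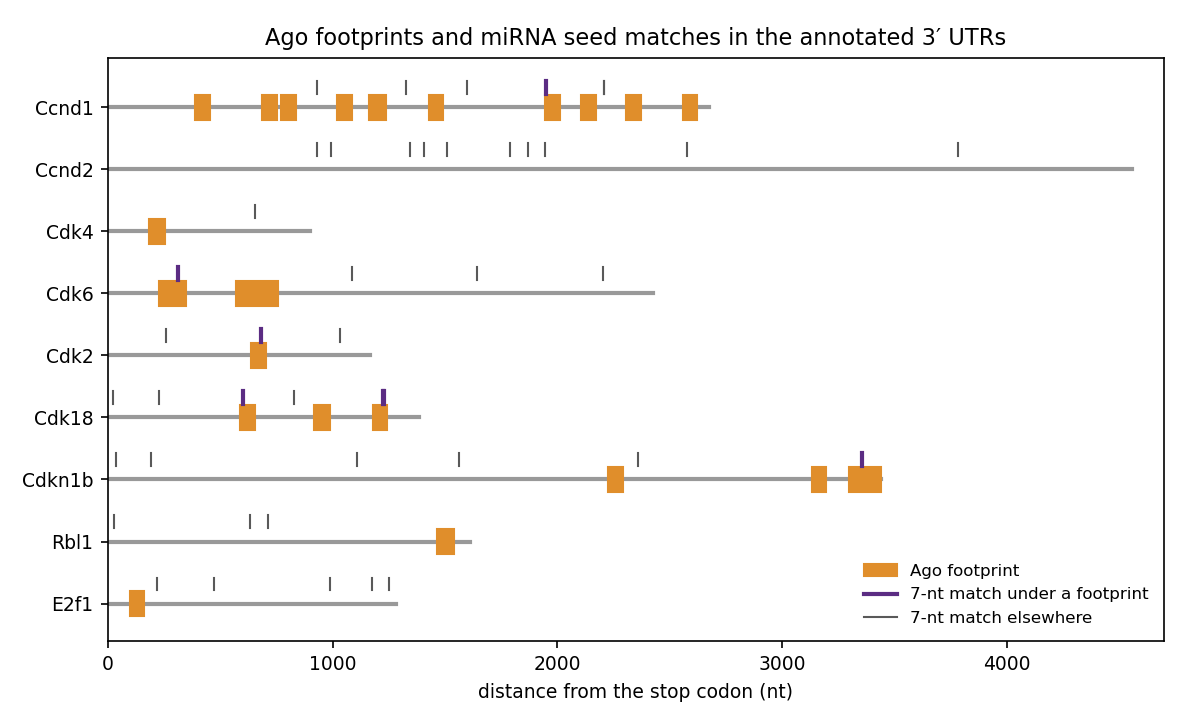
Annotated 3′ UTRs of 9 genes drawn to scale from the stop codon (nt), with Ago footprints as boxes and 7-nt seed matches as ticks above the line. Thick ticks are the 7 matches under a footprint, and thin ticks are the 37 elsewhere. Wee1 is left out because its annotated model ends at the stop codon.

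The ratio moved with base composition in this group as in the whole table. Of the 10 footprints with a G+C content below the table median of 42.9%, 8 were lower in KO (63.8% of all footprints below that median), and of the 13 others 3 were lower (39.3% of all). The 5 with a G+C content of up to 34.8% were Ccnd1 footprints 1 and 7, Cdkn1b footprints 1 and 2 and the Rbl1 footprint, and each was lower in KO (70.3% of all such footprints). G+C content and log2 ratio had a Spearman correlation of 0.530 over the 23 footprints and 0.325 over all 6270, points that share libraries and, in part, transcripts. With all footprints split into 10 classes of G+C content and the median of its class subtracted, Ccnd1 footprint 1 went to -0.25, footprint 4 to 0.82 and footprint 10 to 0.76, all short of 2-fold. Ccnd1 footprints 6 (1.64) and 8 (1.01), E2f1 (2.18), Cdk2 (1.57), Cdk6 footprint 1 (1.19), Cdk4 (-1.29) and Cdkn1b footprint 2 (-2.64) stayed past it. Some footprints short of 2-fold changed side, among them Ccnd1 footprint 7 (0.44), Cdk18 footprint 3 (-0.26) and the Wee1 footprint (-0.22). Others kept their side and shrank, namely Ccnd1 footprints 2 (0.05) and 9 (0.39) and Cdk18 footprint 1 (0.58). Cdkn1b footprints 1 (-0.03) and 3 (-0.21) shrank as well. Ccnd1 footprints 3 (-0.31) and 5 (-0.73) and Cdk18 footprint 2 (-0.82) moved further down. The part of base composition in these ratios was not tested.

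**Figure D5:**
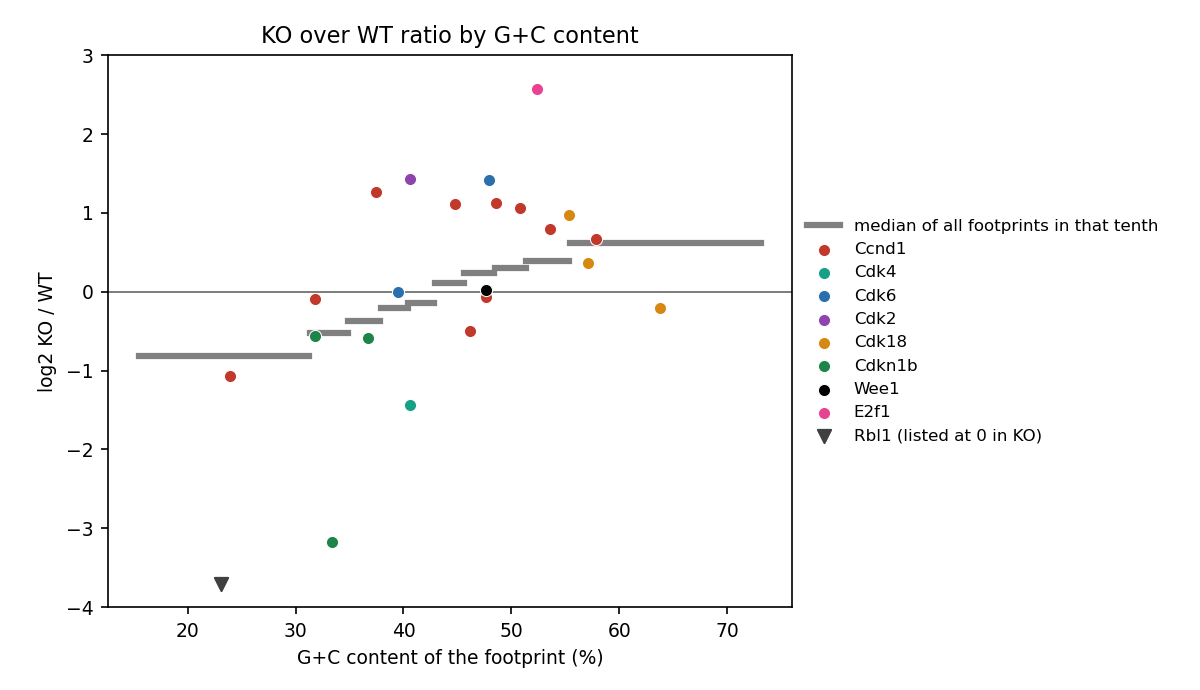
Log2 KO over WT ratio against the G+C content of the footprint in percent, with grey bars for the median of all footprints in each of 10 classes of G+C content (-0.82 in the lowest and 0.62 in the highest). Points are the footprints of the group coloured by gene. The Rbl1 footprint is placed at the lower edge since it is listed at 0 in KO.

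Beyond these 10 genes, 130 others of the cell cycle were listed by role, and 23 had a footprint, 54 footprints in all. By summed occupancy 9 of the 23 were higher in KO (47.8% of all gene sums) and 14 lower. At least 2-fold higher were 2 (11.7% of all) and at least 2-fold lower 5 (17.9% of all), with a median log2 ratio of -0.28 (all genes -0.04). The 2 were Mcm6 (0.486 in KO and 0.135 in WT), a subunit of the replicative helicase, and Cdkn2c (0.346 in KO and 0.145 in WT), an inhibitor of CDK4 and CDK6. Each rests on 1 footprint held by 2 KO and 1 WT libraries. In that pattern 70.5% of footprints were at least 2-fold higher in KO. Max (0.216 in KO and 0.123 in WT), the partner of MYC, came next, without a KO library holding it. The lowest were Gmnn (0.0592 in KO and 0.431 in WT), which blocks relicensing of replication, Ccnf (0.0940 in KO and 0.396 in WT), a cyclin in an E3 ligase, and Cdk19 (0.382 in KO and 1.27 in WT), a kinase of the Mediator complex. No KO library held the footprints of Gmnn and Cdk19 either, so their KO values are of the same unknown origin as those of Cdk4 and Cdkn1b. The strongest were Cdk14 (15.4 in KO and 11.5 in WT over 12 footprints), Cdk17 (3.16 in KO and 5.47 in WT) and Mdm2 (4.27 in KO and 4.21 in WT), the ligase of p53.

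No listed gene among the other pocket proteins and E2F factors (0 of 15), the other D and E cyclins (0 of 3) or the other kinases and phosphatases acting on CDK1 (0 of 4) had a footprint. Of 17 other cyclin-dependent kinases 5 had one (2 higher and 3 lower in KO), and of 6 other CDK inhibitors 2. Of 13 other cyclins 4 had one. Rbl1 and E2f1 were thus the 2 members of the retinoblastoma and E2F group with a footprint. Their values lay on opposite sides, with Rbl1 listed at 0 in KO and E2f1 6.04 times as high in KO as in WT. Each rests on 1 footprint, held by 0 KO libraries for Rbl1 and by 1 for E2f1. The log2 ratio of E2f1 fell to 0.59 with a pseudocount of 1. The G+C content was 23.1% for Rbl1 and 52.4% for E2f1, in classes where all footprints had medians of -0.82 and 0.40.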

How the data were processed

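Ago occupancy was deposited as a ratio. The authors divided the footprint signal by RNA-Seq transcript expression after aligning reads to mm9 and joining them into clusters, per the series design text. The submitters' processing notes name Bowtie 0.12.8 and bedtools. The sources used here do not say how 3 libraries became 1 value, how depth entered or what unit the divisor had. The deposited table also counts the libraries of each genotype holding a footprint. Libraries were grouped by the genotype label. Coordinates, counted from 1, were placed on NCBIM37 (the same assembly as mm9) with GENCODE vM1, and pysam 0.24.0 read sequences from a samtools 1.23.1 index. The stop codon was taken off the annotated 3′ UTR.

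Log2 ratios used a pseudocount of 50% of the smallest value above 0. It hardly moved even the weak Cdk4 footprint (-1.43, and -1.45 without it). A pseudocount of 0.1 brought that ratio to -0.79, so 2-fold calls on weak footprints depend on this choice. No test was possible with 1 value per genotype. A 2-fold rule and the share of all footprints passing it stand in its place. Ratios and site search were tested on simulated data. Alternatives changed the pseudocount, centring, filters, gene summary and site definition. Members and lists were chosen with earlier results of these data known. All 10 genes are named. Other cell cycle genes are named if among the 3 highest or lowest ratios above 0 in both genotypes or the 3 highest means.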

Additional observations from a re-analysis of the deposited data

How the results depend on the processing

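No paired analysis was possible because the table holds 1 combined value per genotype, and for the same reason no library could be left out. With a pseudocount of 0.1, 4 footprints were at least 2-fold higher and 2 lower in KO, and with 1 the counts were 1 (Ccnd1 footprint 6) and 2 (Cdkn1b footprint 2 and Rbl1). Among footprints held by at least 2 libraries of each genotype they were 4 and 0, and among those held by at least 1 of each, 1 was lower. The median log2 ratio, 0.02, went to 0.19 without a pseudocount (which drops Rbl1), 0.18 in 3′ UTRs alone, 0.67 with at least 1 and 0.52 with at least 2 libraries of each genotype. These library filters remove footprints low in KO by construction. With the median of all footprints subtracted, 8 were higher (Cdk18 footprint 1 in addition) and 4 lower. With the median of its G+C class subtracted 5 were higher and 3 lower. By its strongest footprint Ccnd1 passed 2-fold (1.26), Cdk6 went from 0.57 to -0.01 and Cdkn1b to -3.17, and by the median over footprints Cdkn1b fell short (-0.59). A match to bases 2 to 7 was found in 15 of the 23 footprints (53.0% of all footprints), a 7-nt match in the central 46 nt in 3 (14.3% of all), bases 2 to 7 followed by A in 4 (22.2%), and in footprints widened by 20 nt in 6 (29.6%). Wee1 without its footprint has no value. Depth is unknown.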

Other observations

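A second footprint lay past Wee1 on the same strand, 574 nt after the annotated end (chr7:117286200-117286271), and was not counted with the group because the choice named the first by its position. It had 1.48 in KO and 3.13 in WT, against 28.2 in KO and 27.9 in WT for the first. No other footprint lay within 5000 nt of a listed gene on its strand. Over all genes, 4 or more footprints found in all 6 libraries occurred on Ccnd1, on 4 other genes with the same number and on 2 with more.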
